A study of Arabidopsis thaliana with 18 samples.

Results

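The genes described here are 49 Arabidopsis thaliana genes for proteins of the cytosolic ribosome and for the ribosome-bound scaffold RACK1. They were chosen by locus identifier from the 32744 genes counted in each library, not by a threshold on measured values. Earlier results of these data were known when they were chosen, so the counts below describe this set and are not independent support. The set holds 23 genes of large-subunit proteins, 19 of small-subunit proteins, 4 of the P stalk and 3 of RACK1. They fall into 25 protein families, of which 16 have at least 2 members here and 9 have 1. Of the 49 genes, 48 had enough reads to be tested. The RNA came from whole rosettes of era1 and wild-type (WT) plants grown on potting soil and given nitrate at 0, 2 or 10 mM, and the rosettes were cut when the first flower buds had become visible. That gives 6 groups, era1 and WT at each of 3 nitrate doses, with 3 libraries in each group and 18 in all. All groups shared the soil, the growth conditions and the developmental stage, and potting soil can carry nitrogen of its own. The design text speaks of biological replicates and does not say how many plants went into a library, so the p-values below measure only the spread between these libraries. The genotype label describes era1 as a T-DNA knock-out and prints the locus AT5G66470 beside it, whereas ERA1, which encodes the beta subunit of protein farnesyltransferase, is AT5G40280.

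Cytosolic ribosomes translate the messages of the nuclear genome. In plants nearly every ribosomal protein is encoded by a small family of genes whose products are closely similar and can replace one another in the ribosome. The ribosomal protein genes of many organisms are regulated together, and making ribosomes takes a large part of a growing cell's nitrogen, RNA and energy. The P stalk, built from P0 and the acidic P1 and P2 proteins, recruits the translation GTPases to the large subunit. RACK1 is a propeller of WD repeats on the head of the small subunit that binds signalling proteins, and Arabidopsis has 3 genes for it, RACK1A, RACK1B and RACK1C.

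Gene counts summed to between 4748044 and 6306900 per library, and the 49 genes took between 1.03 and 1.48% of them. ERA1 averaged 2.29, 2.21 and 1.39 CPM (counts scaled to the library total) in era1 at 0, 2 and 10 mM, against 9.50, 11.1 and 9.26 CPM in WT, so the library labels held for this gene. AT5G66470 had 17.03, 28.9 and 40.9 CPM in era1 against 27.4, 35.0 and 44.5 CPM in WT. Some measures of the libraries moved with the groups, and their part in the results was not tested. Reads that did not map uniquely are given as a percentage of gene counts plus the reads assigned to no gene. They were 4.74 and 4.72% in era1 at 0 and 2 mM against 2.52% at 10 mM. In WT they were 4.97 and 4.88% at 0 and 2 mM against 2.15% at 10 mM. Organelle genes took 3.25 and 3.44% of gene counts in era1 at 0 and 2 mM against 2.17% at 10 mM, and 4.13 and 3.95% in WT against 2.09%. Leaf markers (4 photosynthesis genes) summed to 5725 ± 389, 8689 ± 259 and 7174 ± 547 CPM in era1 at 0, 2 and 10 mM, against 11806 ± 656, 10691 ± 217 and 7912 ± 273 CPM in WT (mean ± SD, n = 3 each). Root markers (4 genes, 1 tested) stayed at or under 63.0 CPM in sum and inflorescence markers (5 genes, 1 tested) at or under 6.75 CPM in every library. Library 2 of era1 at 10 mM stood apart from its replicates for some members: RACK1B had 47.6 CPM there against 81.1 and 87.2 CPM in the other era1 libraries at 10 mM. Values without this library are given where they change a result. In this tissue extract, fewer cells of a type and less RNA per cell cannot be told apart.

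The promoters of 4 members are shown because these genes, as described further on, behaved differently at low nitrate: RACK1A was lower at low nitrate in both genotypes, RACK1B was not called at low nitrate in WT, and of the paralogs for ribosomal protein S28, AT3G10090 was higher and AT5G03850 lower. Each sequence is the 250 bases before the start of the first transcript listed for the gene, 5′ to 3′ on the gene's strand, from RefSeq for the TAIR10.1 assembly. Capitals mark site II elements, searched as TGGGCC and TGGGCT on both strands, where GGCCCA and AGCCCA are the same elements read from the other strand. The RACK1A promoter lies at chr1:6221951-6222200 on the plus strand. The RACK1B promoter lies at chr1:17983378-17983627 on the minus strand. The AT3G10090 promoter lies at chr3:3110095-3110344 on the minus strand. The AT5G03850 promoter lies at chr5:1029132-1029381 on the minus strand.
RACK1A: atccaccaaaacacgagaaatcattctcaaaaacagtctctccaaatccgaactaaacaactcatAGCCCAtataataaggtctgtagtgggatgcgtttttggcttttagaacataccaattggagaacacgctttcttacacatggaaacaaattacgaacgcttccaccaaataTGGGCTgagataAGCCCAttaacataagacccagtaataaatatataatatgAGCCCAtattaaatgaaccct
RACK1B: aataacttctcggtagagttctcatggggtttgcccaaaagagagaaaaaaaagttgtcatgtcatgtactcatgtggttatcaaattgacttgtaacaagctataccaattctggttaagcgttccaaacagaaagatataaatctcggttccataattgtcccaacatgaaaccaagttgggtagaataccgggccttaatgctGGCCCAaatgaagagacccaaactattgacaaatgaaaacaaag
AT3G10090: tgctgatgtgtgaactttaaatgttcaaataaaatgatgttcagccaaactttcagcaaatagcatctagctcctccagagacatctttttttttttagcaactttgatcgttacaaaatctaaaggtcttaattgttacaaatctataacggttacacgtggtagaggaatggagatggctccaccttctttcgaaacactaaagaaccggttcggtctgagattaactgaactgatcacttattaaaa
AT5G03850: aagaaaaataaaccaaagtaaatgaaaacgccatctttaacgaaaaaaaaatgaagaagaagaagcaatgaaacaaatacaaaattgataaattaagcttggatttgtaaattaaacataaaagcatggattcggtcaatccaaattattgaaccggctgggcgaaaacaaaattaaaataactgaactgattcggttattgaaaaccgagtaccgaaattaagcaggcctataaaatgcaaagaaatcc
The RACK1A promoter held 4 site II elements, which begin 185, 73, 61 and 21 bases before the transcript start. The RACK1B promoter held 1, which begins 44 bases before the start. Neither S28 promoter held any, and no match says only that these letters are not in this window.

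Among all 49 members, 32 promoters (65.3%) held at least 1 site II element, as did 69.8% of the promoters of 172 other cytosolic ribosomal protein genes, 37.8% of those of 37 nuclear genes for plastid ribosomal proteins and 19.3% of 27443 nuclear protein-coding promoters of the same length. The telo-box, searched as AAACCCTA on both strands, was found in 6 member promoters (12.2%), against 22.1% of the other cytosolic ribosomal protein genes and 4.54% of all. Among the 17753 nuclear protein-coding promoters whose gene was tested, 23.4% held site II and 3.53% the telo-box.

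The libraries were made from the 3′ ends of polyadenylated RNA, so a read stands for 1 transcript end and a level in CPM is not divided by gene length. Averaged over the 18 libraries, the most abundant members were AT1G01100, which encodes the stalk protein P1, at 631 CPM, AT3G09200, which encodes P0, at 628 CPM, and AT1G70600, which encodes L27a, at 494 CPM. The least abundant tested members were the P0 paralog AT2G40010 at 6.62 CPM and RPSAb (AT3G04770), a gene for the small-subunit protein Sa, at 10.6 CPM. AT3G51190, the third of the L8 genes, had 2 counts in all, 1 in each of 2 libraries, failed the filter on low counts and is not in any test below. Differences between neighbours in this order mix transcript number with how well each 3′ end was captured. Paralogs of a family were 74.6 to 92.7% identical over their aligned coding bases. Every 50-base window in the last 300 transcript bases of all 49 genes was nevertheless without an exact copy elsewhere in the genome. In RPL16B (AT4G18730), P40 (AT1G72370) and AT4G36130, a gene on the opposite strand covered 16.3, 29.9 and 98.0% of those windows. Whether the counting used strand is not given in the sources used here, so the values of these 3 genes are uncertain.

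At 0 and at 2 mM nitrate most members were lower than at 10 mM, in era1 and in WT. The 49 genes together summed to 10789 ± 647 CPM in era1 at 0 mM, 11029 ± 484 CPM at 2 mM and 14331 ± 385 CPM at 10 mM. In WT they summed to 11326 ± 203, 11468 ± 441 and 14208 ± 419 CPM (mean ± SD, n = 3 each). The highest library at 0 or 2 mM, a WT library with 11900.3 CPM, stood below the lowest library at 10 mM, a WT library with 13788 CPM. The sum was 24.7% lower in era1 at 0 mM than at 10 mM and 20.3% lower in WT, and at 2 mM it was 23.0% lower in era1 and 19.3% lower in WT.

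**Figure D1:**
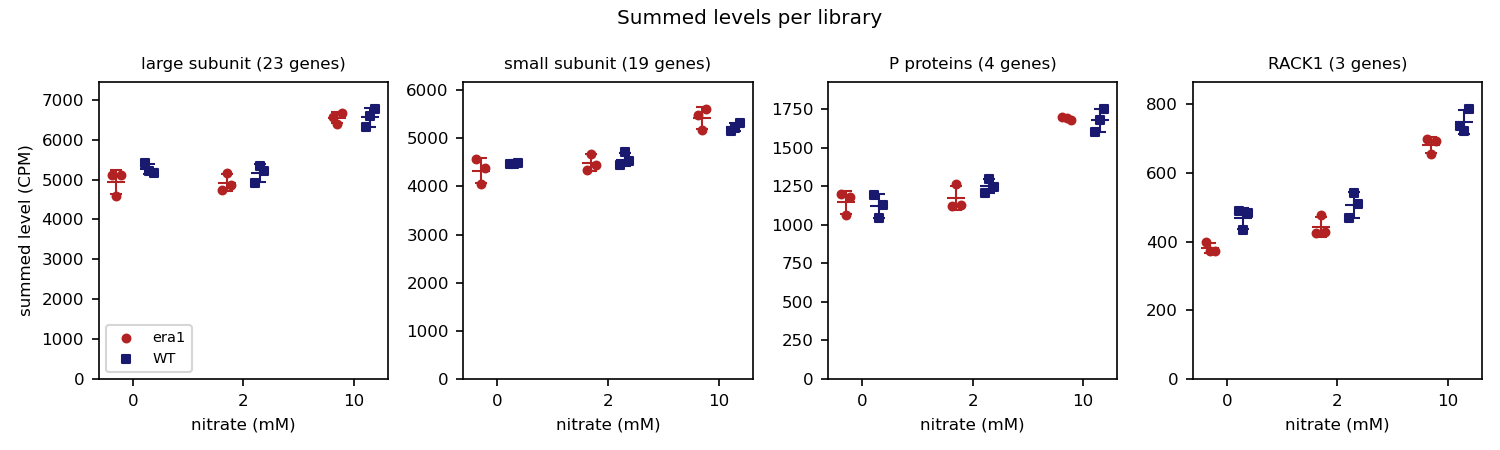
Summed CPM (vertical axis, from 0) of the large-subunit, small-subunit, P stalk and RACK1 genes in each of the 18 libraries, with nitrate dose in mM on the horizontal axis, era1 as red circles left of WT as dark squares, and bars for mean ± SD of 3 libraries. RACK1 summed to 382 ± 15.4 CPM in era1 at 0 mM against 681 ± 22.8 CPM at 10 mM, and in all 4 panels the libraries at 10 mM lie above those at 0 and 2 mM of the same genotype.

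The same held for the classes to different extents. RACK1 was lower in sum by 44.0% in era1 and 37.4% in WT at 0 mM, and the P stalk genes by 32.2% and 33.1%. Large-subunit genes were lower by 24.6% in era1 and 19.7% in WT, and small-subunit genes by 20.2% and 14.4%. At 2 mM the differences from 10 mM in era1 and WT were 34.9 and 32.3% for RACK1, 30.6 and 25.4% for the P stalk, 24.7 and 21.4% for the large subunit and 17.1 and 12.8% for the small subunit. The class sums use the same scaling factors, so the order of the genotypes at 0 mM may depend on scaling in them as well. No difference between the classes or between the genotypes in these sums was tested.

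Gene by gene, edgeR's quasi-likelihood test with Benjamini-Hochberg adjustment over all 18358 genes tested, at a false discovery rate (FDR) of 0.05, called 40 of 48 members lower and 1 higher in era1 at 0 against 10 mM. Over all genes, 28.0% were called lower and 27.5% higher in this comparison. The median log2 fold change of the members was -0.43, that of all genes 0.00. In WT, 30 members were lower and 2 higher at 0 against 10 mM, with a median of -0.28, where 26.7% of all genes were lower and 26.9% higher and the median of all was 0.01. At 2 against 10 mM, 35 members were lower and 1 higher in era1 (median -0.32), beside 26.5% lower and 25.5% higher among all genes (median -0.03). In WT at 2 against 10 mM, 26 were lower and 1 higher (median -0.22), beside 28.3% lower and 28.8% higher among all (median 0.01). Within a genotype the comparisons of 0 and of 2 mM use the same 10 mM libraries, so they do not support each other. Without era1 library 2 at 10 mM, 40 members were lower in era1 at 0 mM and 40 at 2 mM. Without WT library 1 at 10 mM, 1 member in place of 2 was higher in WT at 0 mM. Scaled to gene totals alone, without TMM factors, 30 members were lower in era1 and 30 in WT at 0 mM. At 2 mM 40 were lower in era1 and 32 in WT under that scaling. The gap between the genotypes in these counts at 0 mM therefore depended on scaling.

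**Figure D2:**
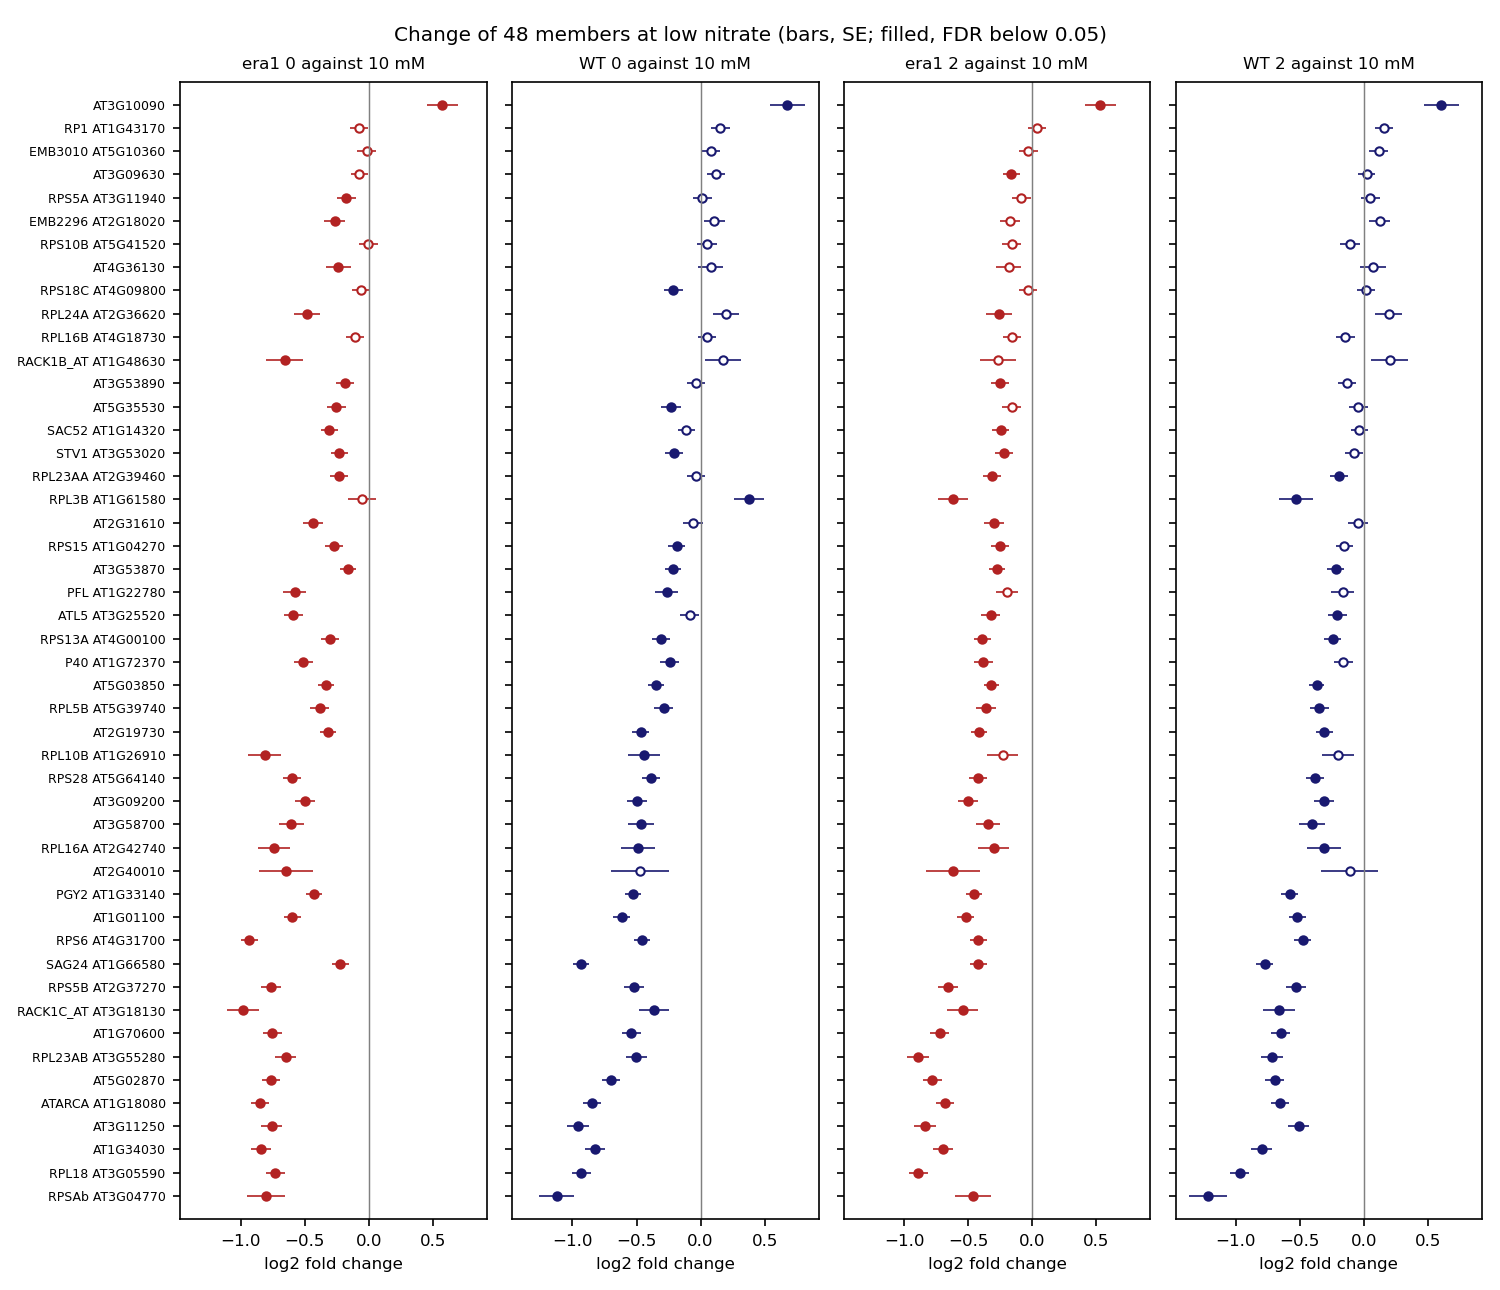
Log2 fold change ± SE (horizontal axis) of each of the 48 tested members at 0 and at 2 mM against 10 mM, in era1 and WT panels, with genes ordered by their mean change and filled points for FDR under 0.05. Most points lie left of 0 in every panel, AT3G10090 lies right of 0 in all 4 (0.57 in era1 and 0.68 in WT at 0 mM), and both panels of a genotype share its 10 mM libraries.

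Split by the site II elements described above, at 0 against 10 mM in era1, 26 of 31 tested members with site II were called lower (83.9%) and 14 of 17 without it (82.4%). In WT the counts were 18 of 31 (58.1%) and 12 of 17 (70.6%). Among all genes tested, those with site II were called lower in 31.0% of cases in era1 and 33.1% in WT, and those without it in 27.8% and 25.3%. These are descriptions of letters in a window, and no factor binding was measured.

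All 4 P stalk genes were called lower in era1 at both low doses and 3 of 4 in WT, where 26.5 to 28.3% of all genes were called lower. The most abundant, the P1 gene AT1G01100, had 548, 488 and 504 CPM (0 mM), 531, 567 and 527 CPM (2 mM) and 759, 815 and 756 CPM (10 mM) in the era1 libraries, against 595, 515 and 516 CPM (0 mM), 563, 599 and 576 CPM (2 mM) and 808, 824 and 859 CPM (10 mM) in the WT libraries. Every low-dose library was below every 10 mM library. Its log2 fold change at 0 against 10 mM was -0.60 ± 0.07, FDR = 4.26e-08 in era1 and -0.62 ± 0.07, FDR = 3.67e-08 in WT, and at 2 mM it was -0.52 and -0.52. The P0 gene AT3G09200 averaged 564 ± 50.7 CPM in era1 at 0 mM against 798 ± 31.9 CPM at 10 mM, and 519.9 ± 42.4 against 732 ± 43.6 CPM in WT, a log2 fold change of -0.50 and -0.49. The second P0 gene, AT3G11250, fell in both genotypes, by 0.76, FDR = 2.89e-08 in era1 and by 0.96, FDR = 1.61e-09 in WT at 0 mM, on the log2 scale. Of the reads of the 3 P0 genes in this set, AT3G11250 held 9.82 ± 0.746% at 0 mM against 11.5 ± 0.212% at 10 mM in era1. In WT it held 9.37 ± 0.523% against 12.5 ± 0.219%. The third P0 gene, AT2G40010, is rare, with 5.40 CPM in era1 at 0 mM against 8.50 CPM at 10 mM. The calls in era1 were at 0 mM (-0.65, FDR = 0.0118) and 2 mM (-0.62, FDR = 0.0174). They were lost without era1 library 1 or 2 at 0 mM (-0.55) and without era1 library 3 at 2 mM or era1 library 3 at 10 mM (-0.48 to -0.57). In WT its change was -0.47, FDR = 0.0828 at 0 mM and -0.11, FDR = 0.684 at 2 mM, and without WT library 2 at 0 mM the first was called at -0.70.

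The RACK1 genes gave different values. RACK1A (ATARCA, AT1G18080), the most abundant of them, had 320.5, 299.9 and 296 CPM (0 mM), 329.8, 366 and 331 CPM (2 mM) and 547, 557 and 542 CPM (10 mM) in the era1 libraries, against 353, 308 and 357 CPM (0 mM), 364, 412 and 386 CPM (2 mM) and 605, 589 and 638 CPM (10 mM) in the WT libraries. The low-dose and 10 mM libraries did not overlap in either genotype. RACK1A fell in era1 by 0.85 ± 0.07 and in WT by 0.85 ± 0.07 on the log2 scale at 0 mM (FDR = 2.22e-10 and 4.06e-10), and the difference between the genotypes was 0.00 with a 95% interval of -0.19 to 0.19. That difference holds under TMM scaling, with which the median of the same difference over all genes was -0.01. Scaled to gene totals alone, the median over all genes was 0.14. RACK1B (AT1G48630) had 47.8, 41.8 and 47.5 CPM (0 mM), 55.8, 66.0 and 57.6 CPM (2 mM) and 81.1, 47.6 and 87.2 CPM (10 mM) in the era1 libraries, against 69.1, 69.3 and 77.3 CPM (0 mM), 64.2, 79.4 and 75.9 CPM (2 mM) and 60.9, 62.3 and 68.1 CPM (10 mM) in the WT libraries. Its era1 libraries at 0 mM were all below all 9 WT libraries, while in WT the libraries at 0 mM were just above those at 10 mM and those at 2 mM overlapped with both. In era1 it was called lower at 0 mM (-0.66 ± 0.14, FDR = 4.19e-04) and not at 2 mM (-0.27 ± 0.14, FDR = 0.114), and in WT it was called at neither dose (0.17 ± 0.14, FDR = 0.317 at 0 mM and 0.20 ± 0.14, FDR = 0.246 at 2 mM). The era1 library 2 at 10 mM was low for RACK1B, and without it the change in era1 at 2 mM was called at -0.49 (FDR = 0.000302). RACK1C (AT3G18130) had 31.0, 30.2 and 30.3 CPM (0 mM), 38.1, 45.2 and 41.0 CPM (2 mM) and 68.7, 50.3 and 62.2 CPM (10 mM) in the era1 libraries, against 66.5, 55.6 and 48.2 CPM (0 mM), 39.6, 50.6 and 48.1 CPM (2 mM) and 69.5, 68.5 and 81.4 CPM (10 mM) in the WT libraries. RACK1C was called lower in era1 at 0 mM (-0.99 ± 0.12, FDR = 3.37e-07) and 2 mM (-0.54, FDR = 5.31e-04), and in WT at 0 mM (-0.37, FDR = 0.0117) and 2 mM (-0.66, FDR = 5.52e-05). The WT call at 0 mM was lost without WT library 3 at 0 mM or WT library 3 at 10 mM (-0.25 to -0.28).

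Of 22 tested large-subunit members, 18 were called lower and 0 higher in era1 at 0 against 10 mM, and 12 lower and 1 higher in WT. At 2 against 10 mM the counts were 17 lower and 0 higher in era1, and 13 lower and 0 higher in WT. Proteins L3 and L4 reach into the centre of the subunit, L3 near the peptidyl transferase centre and L4 along the exit tunnel. The L4 gene AT5G02870 was among those that fell most steadily. It had 335, 297 and 325 CPM (0 mM), 317, 329 and 302 CPM (2 mM) and 538, 552 and 535 CPM (10 mM) in the era1 libraries, against 392, 343 and 367 CPM (0 mM), 329.8, 391 and 382 CPM (2 mM) and 585, 585 and 619 CPM (10 mM) in the WT libraries. Its low-dose libraries were all below those at 10 mM, with log2 fold changes at 0 mM of -0.76 ± 0.07, FDR = 2.12e-09 in era1 and -0.70 ± 0.07, FDR = 1.47e-08 in WT. Its paralog AT3G09630 averaged 264 ± 6.25 CPM at 0 mM against 278 ± 10.4 CPM at 10 mM in era1, and 291 ± 6.06 against 268 ± 12.7 CPM in WT, and was called at 0 mM in neither genotype (-0.08 and 0.12). RPL18 (AT3G05590) had 402, 367 and 365 CPM (0 mM), 335, 367 and 316 CPM (2 mM) and 627, 649 and 607 CPM (10 mM) in the era1 libraries, against 403, 349 and 369.5 CPM (0 mM), 336, 383 and 373 CPM (2 mM) and 665, 722 and 754 CPM (10 mM) in the WT libraries. Its changes were -0.73 ± 0.07, FDR = 8.60e-09 in era1 and -0.93 ± 0.07, FDR = 2.53e-10 in WT at 0 mM, and -0.89 and -0.97 at 2 mM.

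Several other large-subunit genes shared this pattern. The abundant L27a gene AT1G70600 averaged 379 ± 21.8 CPM at 0 mM against 639 ± 12.3 CPM at 10 mM in era1 and 462 ± 44.6 against 672 ± 39.5 CPM in WT, and was called lower in both (-0.75 and -0.54). The L28 gene AT2G19730 was called lower by 0.32 in era1 and 0.47 in WT. L23a lies at the mouth of the exit tunnel, and of its genes RPL23AB (AT3G55280) was called lower at -0.65 in era1 and -0.50 in WT at 0 mM, while RPL23AA (AT2G39460) was at -0.23 in era1 and -0.03 in WT, the last of these not called. L5 and L11 bind the small ribosomal RNA of the large subunit. RPL5B (AT5G39740) was at -0.38 and -0.29, and of the L11 genes RPL16A (AT2G42740) was at -0.74 and -0.49 and AT3G58700 at -0.61 and -0.46, in era1 and WT, all called lower. PGY2 (AT1G33140), an L9 gene whose mutants have altered leaf shape, was called lower at -0.43 and -0.53. STV1 (AT3G53020), an L24 gene known for reinitiation after upstream open reading frames, changed less, by -0.23 and -0.21, and was called in both.

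L10 joins the large subunit late in its assembly, and its 3 genes gave 3 patterns. SAC52 (AT1G14320), the most abundant, averaged 281 ± 14.3 CPM at 0 mM against 348 ± 8.68 CPM at 10 mM in era1, and 319 ± 8.38 against 345 ± 17.6 CPM in WT. SAC52 was called lower in era1 (-0.31 ± 0.07, FDR = 3.73e-04) and not in WT (-0.11 ± 0.07, FDR = 0.172). RPL10B (AT1G26910) was called lower in both at 0 mM (-0.81, FDR = 7.90e-06 in era1 and -0.44, FDR = 0.00521 in WT) and in neither at 2 mM (-0.23, FDR = 0.115 and -0.21, FDR = 0.171). Without era1 library 2 at 2 mM its change in era1 at 2 mM was called at -0.34. SAG24 (AT1G66580) had 208, 185 and 197 CPM (0 mM), 169, 173 and 172 CPM (2 mM) and 234, 232 and 222 CPM (10 mM) in the era1 libraries, against 156, 155 and 141 CPM (0 mM), 169.6, 170.2 and 164 CPM (2 mM) and 286, 281 and 294 CPM (10 mM) in the WT libraries. In WT its 10 mM libraries stood well above the rest, with changes of -0.93 ± 0.07, FDR = 3.89e-11 at 0 mM and -0.77 ± 0.07, FDR = 3.37e-10 at 2 mM, and in era1 the changes were -0.22 ± 0.06, FDR = 0.00563 and -0.42 ± 0.07, FDR = 6.51e-06. Scaled to gene totals alone, the era1 change at 0 mM was -0.10 and not called.

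Of 19 small-subunit members, 15 were called lower and 1 higher in era1 at 0 against 10 mM, and 13 lower and 1 higher in WT. At 2 against 10 mM the counts were 12 lower and 1 higher in era1, and 8 lower and 1 higher in WT. Of all genes, 28.0% were lower in era1 and 26.7% in WT at 0 mM, and 26.5% and 28.3% at 2 mM. S6 is the protein that S6 kinase phosphorylates downstream of the TOR kinase, and its genes gave different values. RPS6 (AT4G31700) had 175, 175 and 157 CPM (0 mM), 228, 251 and 242 CPM (2 mM) and 313, 331 and 322 CPM (10 mM) in the era1 libraries, against 287, 272 and 269 CPM (0 mM), 256, 285 and 274 CPM (2 mM) and 372, 381 and 384 CPM (10 mM) in the WT libraries. The 0 mM libraries were below the 10 mM libraries in both genotypes, and in era1 the 0 mM libraries were also below those at 2 mM. RPS6 was called lower at 0 mM in era1 (-0.93 ± 0.07, FDR = 1.85e-11) and WT (-0.46 ± 0.07, FDR = 2.59e-06). EMB3010 (AT5G10360), the other S6 gene, had 509, 415 and 435 CPM (0 mM), 431, 477 and 439 CPM (2 mM) and 453, 436 and 488 CPM (10 mM) in the era1 libraries, against 447, 418 and 426 CPM (0 mM), 442, 462 and 419.9 CPM (2 mM) and 424, 411 and 388 CPM (10 mM) in the WT libraries. Its doses overlapped, and its changes at 0 mM were -0.02, FDR = 0.855 in era1 and 0.08, FDR = 0.389 in WT, with 95% intervals of -0.16 to 0.13 and -0.07 to 0.22.

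So did the S18 genes. AT1G34030 had 187, 166 and 169 CPM (0 mM), 187, 199.9 and 190.4 CPM (2 mM) and 314, 321 and 301 CPM (10 mM) in the era1 libraries, against 225, 190.0 and 186 CPM (0 mM), 196, 219 and 197 CPM (2 mM) and 327, 378 and 359.8 CPM (10 mM) in the WT libraries. AT1G34030 was called lower at 0 mM in both genotypes (-0.84 ± 0.08, FDR = 2.36e-09 in era1 and -0.83 ± 0.08, FDR = 4.83e-09 in WT), and no low-dose library reached a 10 mM library of its genotype. PFL (AT1G22780), named for the pointed first leaves of its mutant, was called lower at 0 mM in era1 (-0.58, FDR = 5.94e-06) and in WT (-0.26, FDR = 0.0157). The WT call was lost without WT library 2 or 3 at 0 mM or WT library 3 at 10 mM (-0.21 to -0.22). At 2 mM its changes were -0.20, FDR = 0.0602 in era1 and -0.17, FDR = 0.116 in WT, and without era1 library 2 at 10 mM or era1 library 2 at 2 mM the first was called at -0.25. RPS18C (AT4G09800) was not called in era1 (-0.06, FDR = 0.487) and was called in WT at 0 mM (-0.21, FDR = 0.0169), a call lost without WT library 1 at 0 mM or WT library 3 at 10 mM (-0.13 to -0.20).

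Sa, the protein of the P40 family, has a common gene and a rare one here. P40 (AT1G72370) averaged 345 ± 31.4 CPM at 0 mM against 491 ± 21.8 CPM at 10 mM in era1 and 384 ± 14.3 against 453 ± 15.5 CPM in WT. It was called lower in era1 (-0.51, FDR = 2.51e-06) and in WT (-0.24, FDR = 0.00873), the second of which was lost without WT library 1 at 0 mM (-0.19). RPSAb had 7.71, 6.59 and 7.10 CPM (0 mM), 8.41, 8.57 and 10.0 CPM (2 mM) and 12.8, 12.9 and 11.6 CPM (10 mM) in the era1 libraries, against 8.50, 9.01 and 7.95 CPM (0 mM), 6.97, 7.40 and 9.48 CPM (2 mM) and 19.8, 17.6 and 18.1 CPM (10 mM) in the WT libraries. The WT libraries at 10 mM were above all others, and in era1 the 10 mM libraries were above those at 0 and 2 mM. RPSAb was called lower at 0 mM in era1 (-0.80 ± 0.15, FDR = 4.94e-05) and WT (-1.12 ± 0.14, FDR = 3.22e-07) and at 2 mM in era1 (-0.46, FDR = 0.00762) and WT (-1.22, FDR = 1.03e-07). With DESeq2 the era1 change at 2 mM was -0.45 and not called.

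S3 sits at the entry of the messenger RNA channel. Of its genes, AT3G53870 was called lower at -0.16 in era1 and -0.22 in WT at 0 mM, AT5G35530 at -0.25 and -0.23, and AT2G31610 at -0.44, FDR = 3.50e-05 in era1, with an uncalled -0.06, FDR = 0.562 in WT. The S5 gene RPS5B (AT2G37270) was called lower at -0.76 and -0.52, and RPS5A (AT3G11940), which embryos need, was at -0.18 in era1, called, and 0.01 in WT, not called. RPS13A (AT4G00100), whose loss slows leaf cell division, was called lower at -0.30 and -0.31. RPS15 (AT1G04270) was called lower at -0.27 and -0.19, and the S21 gene AT3G53890 at -0.18 in era1, with an uncalled -0.04 in WT.

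A few members did not follow the rest. AT3G10090, one of 3 genes for S28, was higher at low nitrate. It had 47.3, 54.3 and 57.8 CPM (0 mM), 51.2, 51.4 and 52.4 CPM (2 mM) and 37.1, 28.2 and 42.0 CPM (10 mM) in the era1 libraries, against 41.6, 42.9 and 45.5 CPM (0 mM), 47.5, 33.1 and 42.9 CPM (2 mM) and 25.5, 26.1 and 29.6 CPM (10 mM) in the WT libraries. In both genotypes every low-dose library was above every 10 mM library, and era1 library 2 was the lowest of the era1 libraries at 10 mM. AT3G10090 was called higher at 0 mM in era1 (0.57 ± 0.12, FDR = 3.24e-04) and WT (0.68 ± 0.13, FDR = 1.50e-04) and at 2 mM in era1 (0.53, FDR = 7.83e-04) and WT (0.60, FDR = 5.79e-04). The other S28 genes went the other way. AT5G03850 had 328, 304 and 338 CPM (0 mM), 326, 337 and 316 CPM (2 mM) and 409, 403 and 411 CPM (10 mM) in the era1 libraries, against 336, 319 and 325 CPM (0 mM), 311, 332 and 322 CPM (2 mM) and 402, 424 and 420.1 CPM (10 mM) in the WT libraries. It was called lower at 0 mM in era1 (-0.33 ± 0.06, FDR = 4.74e-05) and WT (-0.35 ± 0.06, FDR = 3.40e-05), and the gene with the symbol RPS28 (AT5G64140) was at -0.60, FDR = 1.08e-07 and -0.39, FDR = 5.72e-05.

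RPL3B (AT1G61580), the less abundant L3 gene, had 37.1, 35.5 and 37.9 CPM (0 mM), 21.1, 24.6 and 28.7 CPM (2 mM) and 34.7, 37.7 and 42.3 CPM (10 mM) in the era1 libraries, against 35.5, 38.0 and 36.4 CPM (0 mM), 20.02, 20.4 and 18.1 CPM (2 mM) and 23.5, 29.5 and 31.6 CPM (10 mM) in the WT libraries. In both genotypes its lowest libraries were those at 2 mM. The WT libraries at 0 mM were above those at 10 mM, while in era1 these doses overlapped. It was called lower at 2 against 10 mM in era1 (-0.62 ± 0.11, FDR = 6.73e-05) and WT (-0.53 ± 0.13, FDR = 0.00119). At 0 mM it was called higher in WT (0.38 ± 0.12, FDR = 0.00897), a call lost without WT library 1 at 10 mM (0.26, FDR = 0.0867), and not called in era1 (-0.05 ± 0.11, FDR = 0.698). RP1 (AT1G43170), the abundant L3 gene, averaged 422 ± 36.7 CPM in era1 at 0 mM against 445 ± 23.8 CPM at 10 mM, and 469.9 ± 41.4 against 422 ± 7.32 CPM in WT. RP1, EMB3010, the L11 gene RPL16B and the S10 gene RPS10B (AT5G41520) were called at neither low dose in either genotype. Their changes at 0 mM in era1 and WT were -0.08 and 0.16 for RP1, -0.11 and 0.05 for RPL16B and 0.00 and 0.05 for RPS10B. At 2 mM they were 0.04 and 0.16 for RP1, -0.03 and 0.12 for EMB3010, -0.16 and -0.15 for RPL16B and -0.16 and -0.11 for RPS10B. These do not show an equal level at all doses. For RPS10B the change in era1 at 2 mM was called at -0.24 without era1 library 2 at 10 mM, and scaled to gene totals alone it was called in era1 (-0.20) and WT (-0.18).

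The share of a family's reads that each paralog took does not depend on library size or scaling. It was computed for 39 members of 16 families and compared by a two-sided exact permutation test that exchanged doses within each genotype (400 arrangements, smallest possible p = 0.005). At 0 against 10 mM, 21 shares in 10 families had an unadjusted p under 0.05, and at 2 against 10 mM 26 shares in 12 families. The shares of a family are not independent, and these p-values are not adjusted.

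The balance of the S6 genes and that of the L4 genes moved in both genotypes. RPS6 took 27.2 ± 2.14% of its family at 0 mM against 41.3 ± 1.75% at 10 mM in era1, and 39.1 ± 0.395% against 48.2 ± 1.50% in WT (exact permutation p = 0.005), and EMB3010 took the rest. Among the L4 genes AT3G09630 took 45.3 ± 1.20% of its family at 0 mM against 33.9 ± 1.22% at 10 mM in era1, and 44.3 ± 1.23% against 31.0 ± 0.726% in WT (p = 0.005, exact permutation). In the S18 family RPS18C gained, with 47.8 ± 1.30% of its family at 0 mM against 36.3 ± 0.674% at 10 mM in era1, and 39.6 ± 3.98% against 32.8 ± 1.90% in WT, and AT1G34030 had 32.6 ± 0.334% of its family at 0 mM against 42.4 ± 1.38% at 10 mM in era1, and 36.8 ± 2.51% against 46.9 ± 1.87% in WT (exact permutation p = 0.005 and 0.005). The same direction in both genotypes was also seen for RPL23AA, with 71.0 ± 1.59% of its family at 0 mM against 64.7 ± 1.48% at 10 mM in era1, and 69.9 ± 2.05% against 62.7 ± 0.413% in WT. RPS5A took 74.6 ± 1.30% of its family at 0 mM against 66.0 ± 0.968% at 10 mM in era1, and 72.6 ± 2.87% against 64.8 ± 1.82% in WT, and RPL16B took 81.5 ± 1.12% of its family at 0 mM against 75.3 ± 1.01% at 10 mM in era1, and 80.4 ± 0.883% against 74.0 ± 0.884% in WT. AT3G10090, the S28 gene that rose, still took a small part, 11.4 ± 1.07% of its family at 0 mM against 6.13 ± 1.02% at 10 mM in era1, and 8.84 ± 0.483% against 4.51 ± 0.267% in WT. Each of these 4 had an exact permutation p of 0.005.

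In other families the genotypes differed in how the shares moved. RACK1A took 80.02 ± 0.769% of its family at 0 mM against 80.7 ± 3.81% at 10 mM in era1, and 72.5 ± 1.44% against 81.7 ± 0.644% in WT (exact permutation p = 0.05). The era1 libraries 1, 2 and 3 were at 80.25, 80.65 and 79.16% at 0 mM and at 78.51, 85.06 and 78.4% at 10 mM. Without library 2 at 10 mM, the RACK1A share in era1 was higher at 0 than at 10 mM. SAG24 took 40.1 ± 0.191% of its family at 0 mM against 38.3 ± 1.17% at 10 mM in era1, and 30.9 ± 1.25% against 43.9 ± 1.41% in WT (exact permutation p = 0.1). For ATL5 (AT3G25520), an L5 gene, the share was 52.8% at 0 mM against 56.4% at 10 mM in era1, lower, and 59.2% against 55.8% in WT, higher (exact permutation p = 0.975). RPL24A (AT2G36620) took 23.1% against 26.3% of the L24 reads in era1, and 28.7% against 23.3% in WT. The S3 gene AT2G31610 took 25.6% against 28.8% in era1, and 30.1% against 27.7% in WT. The test pools the genotypes, so shares that moved in opposite directions cancel in it, and the difference between genotypes in these shares was not tested.

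**Figure D3:**
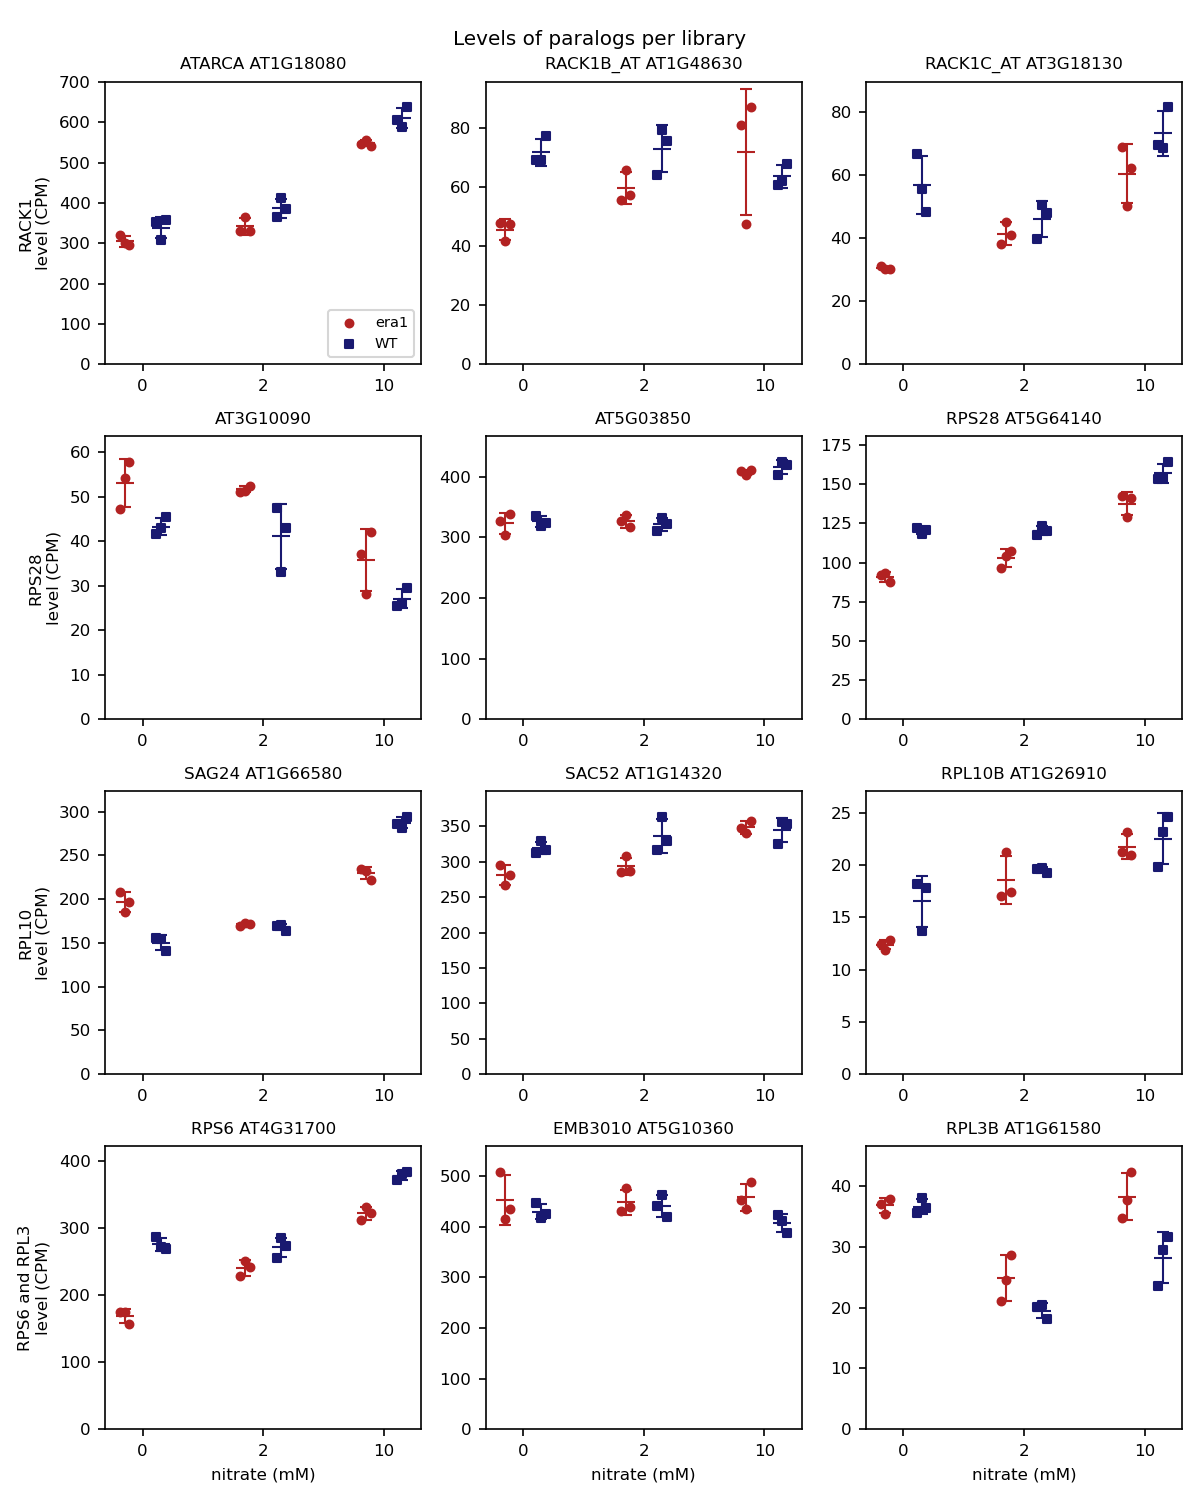
CPM in each library (vertical axis, from 0) of 12 members against nitrate dose in mM, era1 as red circles left of WT as dark squares, with bars for mean ± SD of 3 libraries: the 3 RACK1 genes, the 3 S28 genes, the 3 L10 genes, and RPS6, EMB3010 and RPL3B. Paralogs of a family take different courses, such as RACK1A (339 CPM at 0 mM against 611 CPM at 10 mM in WT) and RACK1B (71.9 against 63.8 CPM).

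Between 0 and 2 mM few members differed. In era1 at 0 against 2 mM, 9 of 48 were called lower (26.0% of all genes) and 3 higher (23.7%), with a median of -0.03, the median of all genes being 0.00. In WT, 3 were lower (22.1%) and 3 higher (20.3%), with a median of -0.01. These calls depended on scaling. Scaled to gene totals alone, which put the median of all genes at 0.15 in era1, 14 members were higher and 3 lower in era1. Under that scaling 6 were higher and 2 lower in WT. With DESeq2 size factors 5 were higher and 3 lower in WT. In WT the count of members called lower was 1 without WT library 1 at 0 mM and 5 without WT library 3 at 0 mM, and that of members called higher was 1 without WT library 1 or WT library 3 at 2 mM.

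RPL3B was called higher at 0 than at 2 mM in era1 (0.57 ± 0.11, FDR = 1.95e-04) and WT (0.91 ± 0.12, FDR = 1.18e-06). RPL23AB was also called higher in both (0.24 and 0.22). Its era1 call was lost without era1 library 1 or 3 at 2 mM (0.19 to 0.20) and its WT call without WT library 2 or 3 at 0 mM or WT library 1 or 3 at 2 mM (0.16 to 0.23). RPS6 was called lower at 0 than at 2 mM in era1 (-0.51 ± 0.07, FDR = 5.27e-07) and was at 0.02 in WT. Also called lower in era1 were RPL10B (-0.58), RACK1C (-0.44), PFL (-0.38) and ATL5 (-0.26). Scaled to gene totals alone, RACK1C (-0.28) and ATL5 (-0.11) were no longer called. RACK1B was called in era1 at -0.39, which was lost without era1 library 2 at 0 mM or era1 library 2 at 2 mM (-0.31 to -0.33) and with gene totals (-0.23). The P0 gene AT3G11250 was called lower at 0 mM in WT (-0.45, FDR = 1.58e-04) and not in era1 (0.08, FDR = 0.478). RACK1A was called lower at 0 mM in WT (-0.19, FDR = 0.0297), a call lost without WT library 1 or 2 at 0 mM or WT library 2 or 3 at 2 mM (-0.12 to -0.19). SAG24 completed the 3 called higher in era1 (0.20, FDR = 0.0129), a call lost without era1 library 1 at 0 mM (0.17). RPL16B completed the 3 called higher in WT (0.20, FDR = 0.0293). Without WT library 1 or 3 at 2 mM, 1 member in place of 3 was called higher in WT. RPS18C completed the 3 called lower in WT (-0.23, FDR = 0.0136) and was no longer called without WT library 1 at 0 mM or WT library 1 or 2 at 2 mM (-0.15 to -0.19). The rest of the 9 called lower in era1 were RPL16A (-0.44), AT3G58700 (-0.26) and the gene RPS28 (-0.18), the last of which was lost without era1 library 1 or 3 at 0 mM or era1 library 2 or 3 at 2 mM (-0.14 to -0.17) and with gene totals (-0.02).

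The comparison of era1 with WT asked whether loss of the farnesyltransferase subunit changed these genes at each dose. At 10 mM, 4 of 48 members were called lower in era1 (14.3% of all genes) and 5 higher (15.4%), with a median of 0.06 beside 0.01 for all genes. At 2 mM, 5 were lower (11.1%) and 1 higher (10.9%), with a median of -0.06 beside -0.01. At 0 mM, 14 were lower (24.6%) and 5 higher (24.5%), with a median of -0.14 beside 0.02. The members' shares at 10 and 2 mM lay below those of all genes. The split at 0 mM rested on the scaling of the libraries. With gene totals alone, which put the median of all genes at 0.22, 5 members were lower and 18 higher at 0 mM. Under the same scaling 3 were lower and 8 higher at 10 mM, and 1 lower and 3 higher at 2 mM, and with DESeq2 size factors 5 were lower and 4 higher at 10 mM. At 10 mM the count higher was 2 without era1 library 1 or 3 or WT library 1 or 2, and 9 without era1 library 2. At 2 mM the count lower was 1 without era1 library 1 or WT library 2, and 2 without era1 library 3 or WT library 3, and the count higher was 2 without era1 library 1. At 0 mM the summed leaf markers were 5725 ± 389 CPM in era1 against 11806 ± 656 CPM in WT (mean ± SD, n = 3 each), and all 4 were called lower. Of 8 tested proliferation markers, 6 were called lower in era1 than in WT at 0 mM (median -0.88), 4 at 2 mM (median -0.42) and 0 at 10 mM (median 0.08), and none was called higher at any dose. The 9 listed summed to 52.9 ± 21.7 CPM in era1 at 0 mM, with libraries between 36.9 and 77.6 CPM, against 92.5 ± 17.7 CPM in WT, with libraries between 76.2 and 111 CPM. The part of either list in the result was not tested.

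At 0 mM the largest difference was that of RACK1C, with -0.90 ± 0.13, FDR = 2.24e-06 in era1 against WT, followed by RPS6 at -0.71 ± 0.07, FDR = 3.52e-09 and RACK1B at -0.65 ± 0.14, FDR = 5.55e-04. With gene totals these 3 kept a negative sign and their calls. Also called lower were RPL10B (-0.42), RPL24A (-0.40), the S28 gene RPS28 (-0.40) and ATL5 (-0.38). The RPL10B call was lost without WT library 1 at 0 mM (-0.36) and with gene totals (-0.23), and the RPL24A call with gene totals (-0.21). SAG24 was called higher at 0.39 ± 0.07, FDR = 3.03e-05. AT3G10090 was called higher at 0 mM (0.30, FDR = 0.0447) and 10 mM (0.40, FDR = 0.0276). Its call at 0 mM was lost without era1 library 2 or 3 at 0 mM or WT library 1, 2 or 3 at 0 mM (0.23 to 0.33), with DESeq2 (0.28) and with DESeq2 size factors (0.28), and its call at 10 mM was lost without era1 library 1 or 3 at 10 mM or WT library 1 or 2 at 10 mM (0.27 to 0.37). RPS10B was called higher in era1 at every dose, with 244 ± 17.1, 219 ± 6.47 and 245 ± 22.7 CPM in era1 at 0, 2 and 10 mM against 205 ± 7.70, 183 ± 10.5 and 198 ± 1.29 CPM in WT. The log2 differences were 0.26, FDR = 0.00592, 0.26, FDR = 0.0139 and 0.31, FDR = 0.00268, and the call at 2 mM was lost without WT library 1 at 2 mM (0.22). RPSAb was called lower in era1 at 10 mM (-0.57 ± 0.13, FDR = 0.00158), as were SAG24 (-0.32, FDR = 4.74e-04) and RPS6 (-0.23, FDR = 0.00840). RPL3B was called higher at 10 mM (0.44, FDR = 0.00563), which was lost without WT library 1 at 10 mM (0.32).

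Smaller differences between the genotypes follow. At 10 mM RPL24A (0.28, FDR = 0.0393) and EMB2296 (0.23, FDR = 0.0338) were called higher in era1. The first call was lost without era1 library 1 or 3 at 10 mM or WT library 2 or 3 at 10 mM (0.17 to 0.28) and by DESeq2 (0.26), and the second without era1 library 1 or 3 at 10 mM or WT library 1, 2 or 3 at 10 mM (0.17 to 0.23) and by DESeq2 (0.21). RPS28 was called lower in era1 at 10 mM (-0.19, FDR = 0.0394) and 2 mM (-0.23, FDR = 0.0228). Its call at 10 mM was lost without era1 library 1, 2 or 3 at 10 mM or WT library 1, 2 or 3 at 10 mM (-0.15 to -0.22), and its call at 2 mM without era1 library 1 at 2 mM or WT library 2 or 3 at 2 mM (-0.18 to -0.23). At 2 mM the other members called lower in era1 were the P0 gene AT3G11250 (-0.34), RPL23AB (-0.26), the L4 gene AT5G02870 (-0.22) and SAC52 (-0.19). The RPL23AB call was lost without era1 library 1 or 3 at 2 mM or WT library 2 at 2 mM (-0.14 to -0.22), the AT5G02870 call without era1 library 1 or 3 at 2 mM or WT library 2 or 3 at 2 mM (-0.17 to -0.22) and the SAC52 call without era1 library 1 or 3 at 2 mM or WT library 2 or 3 at 2 mM (-0.13 to -0.21). With gene totals alone these 3 were -0.18, -0.14 and -0.11 and not called. At 0 mM the L28 gene AT2G19730 (0.23, FDR = 0.00487) and RPS18C (0.26, FDR = 0.00459) completed the 5 called higher in era1.

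Whether the dose effect itself differed between genotypes was tested by an interaction, the log2 fold change in era1 minus that in WT. At 0 against 10 mM, 9 members were called below 0 (19.3% of all genes) and 1 above 0 (15.6%), with a median of -0.15 beside -0.01 for all genes. At 2 against 10 mM, 1 was below 0 (8.09%) and 2 above 0 (7.70%), with a median of -0.09 beside -0.03. With gene totals alone, which put the median of all genes at 0.14 at 0 mM, 5 were below and 6 above 0 at 0 mM, and 0 below and 2 above at 2 mM. At 2 mM none was below 0 without era1 library 1 or 3 at 10 mM, era1 library 1 at 2 mM, WT library 2 or 3 at 10 mM or WT library 2 or 3 at 2 mM, 2 were without era1 library 2 at 2 mM, and 3 without era1 library 2 at 10 mM. Of the 8 proliferation markers, 5 had an interaction called below 0 at 0 mM (median -0.97) and 1 at 2 mM (median -0.77), and their part in the members' interactions was not tested.

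RACK1B had the most negative interaction at 0 mM, -0.83 ± 0.20, FDR = 0.00242, from -0.66 in era1 and 0.17 in WT. RPL24A averaged 81.3 ± 9.88 CPM at 0 mM against 113 ± 18.0 CPM at 10 mM in era1, and 107 ± 3.99 against 93.5 ± 5.36 CPM in WT. Its change was -0.48 ± 0.10, FDR = 2.51e-04 in era1 and 0.20 ± 0.10, FDR = 0.10 in WT, and the interaction -0.68 ± 0.14, FDR = 5.90e-04. RACK1C was called lower in both genotypes and by more in era1, with an interaction of -0.62 ± 0.17, FDR = 0.00676. ATL5 averaged 199.6 ± 19.0 CPM at 0 mM against 300.0 ± 16.7 CPM at 10 mM in era1 and 259 ± 4.07 against 274 ± 11.8 CPM in WT, with changes of -0.59 and -0.08 and an interaction of -0.50 ± 0.10, FDR = 5.34e-04. RPS6 had -0.47 ± 0.09, FDR = 3.12e-04. These 5 interactions were called in each of 12 fits that left out 1 library, and with gene totals alone they were -0.68, -0.53, -0.47, -0.35 and -0.33 in the order given, all called. SAG24 went the other way, with 0.71 ± 0.09, FDR = 1.94e-06, from -0.22 in era1 and -0.93 in WT, and it was called in each of the 12 fits and with gene totals at 0.86.

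Weaker interactions were those of the S3 gene AT2G31610 (-0.38 ± 0.11, FDR = 0.00847) and of the L8 gene EMB2296 (AT2G18020; -0.37 ± 0.11, FDR = 0.0119), which were called in each of 12 fits that left out a library and lost with gene totals alone (-0.23 and -0.22). EMB2296 was at -0.27 in era1, called with TMM scaling and not with gene totals (-0.14), and at 0.11 in WT at 0 mM, and its paralog AT4G36130 at -0.24 and 0.08. RPL3B (-0.43, FDR = 0.0389) stayed called in 5 of 12 such fits and P40 (-0.27, FDR = 0.0465) in 3 of 12. The RPL3B call was lost without era1 library 1 or 2 at 0 mM or era1 library 3 at 10 mM or WT library 1, 2 or 3 at 0 mM or WT library 1 at 10 mM (-0.31 to -0.44). The P40 call was lost without era1 library 2 at 0 mM or era1 library 1 or 3 at 10 mM or WT library 1, 2 or 3 at 0 mM or WT library 1, 2 or 3 at 10 mM (-0.20 to -0.29). With gene totals they were -0.28 and -0.12 and not called, and DESeq2 did not call RPL3B (-0.44). At 2 mM RPSAb had 0.75 ± 0.20, FDR = 0.0128 and SAG24 0.35 ± 0.09, FDR = 0.0106, both called in each of 12 fits without a library, and RPSAb was not called by DESeq2 (0.77). RPL24A at 2 mM (-0.45 ± 0.14, FDR = 0.0322) stayed called in 5 of 12 and was at -0.41 with gene totals, not called. The call was lost without era1 library 1 at 2 mM or era1 library 1 or 3 at 10 mM or WT library 2 or 3 at 2 mM or WT library 2 or 3 at 10 mM (-0.34 to -0.45). In era1 at 2 against 10 mM RPL24A was called lower (-0.26, FDR = 0.0314), which was lost without era1 library 1 or 3 at 2 mM or era1 library 1 or 3 at 10 mM (-0.15 to -0.28).

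**Figure D4:**
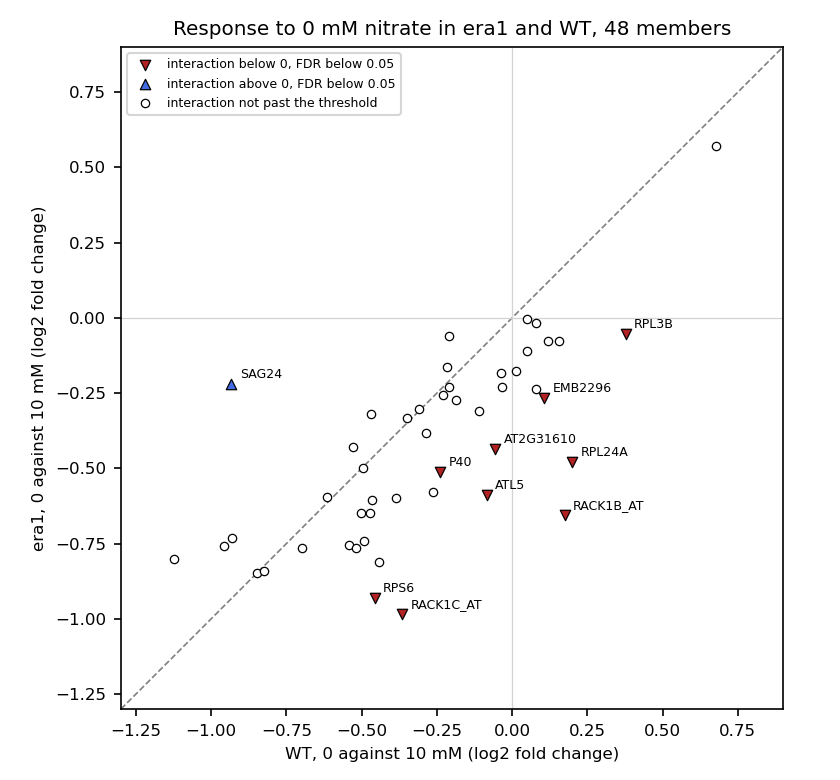
Log2 fold change at 0 against 10 mM of each of the 48 tested members in era1 (vertical axis) against that in WT (horizontal axis), with a dashed line of equal change, red downward triangles for the 9 interactions called below 0 and a blue upward triangle for SAG24, called above 0. Most points lie below 0 on both axes, RACK1B and RPL24A lie right of 0 and below it (-0.66 and -0.48 in era1, 0.17 and 0.20 in WT), and SAG24 lies far above the line (-0.22 in era1, -0.93 in WT).

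Other genes of protein synthesis, from lists that do not hold the 49 members, give the surroundings. Their counts are to be read beside those of all genes tested. At 0 against 10 mM 28.0% of all genes were lower and 27.5% higher in era1, and 26.7% and 26.9% in WT. At 2 against 10 mM these were 26.5% and 25.5% in era1, and 28.3% and 28.8% in WT. Of 172 other cytosolic ribosomal protein genes 161 were tested, with 128 lower and 6 higher in era1 and 94 lower and 17 higher in WT at 0 against 10 mM, and 116 lower and 4 higher in era1 and 96 lower and 13 higher in WT at 2 against 10 mM. Their medians at 0 mM were -0.38 in era1 and -0.26 in WT, and together they summed to 33162 ± 2043 CPM in era1 at 0 mM against 43299 ± 1450.3 CPM at 10 mM, and 34753 ± 569 against 42184 ± 1232 CPM in WT. In both genotypes the highest of these sums at 0 mM was below the lowest at 10 mM. Nuclear genes for plastid ribosomal proteins, 37 in all, behaved differently: 35 lower and 0 higher in era1 and 8 lower and 10 higher in WT at 0 against 10 mM, and 6 lower and 6 higher in era1 and 6 lower and 16 higher in WT at 2 against 10 mM. They summed to 5696 ± 216 CPM in era1 at 0 mM against 9591 ± 305 CPM at 10 mM, and 10791 ± 924 against 10701 ± 551 CPM in WT. At 0 mM, 36 of the 37 were called lower in era1 than in WT. So were 57 of 161 other cytosolic genes and 24.6% of all genes. The members' split in this comparison rested on scaling, and these list counts were computed with TMM scaling only.

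Among 27 ribosome biogenesis genes the calls were 11 lower and 3 higher in era1 and 17 lower and 3 higher in WT at 0 against 10 mM, and 14 lower and 1 higher in era1 and 16 lower and 1 higher in WT at 2 against 10 mM. NAP57 (AT3G57150), the pseudouridine synthase of the nucleolus, was called lower at -0.68 in era1 and -0.88 in WT at 0 mM, and NUC-L2 (AT3G18610), a nucleolin, was called higher at 1.09 and 1.66. Among 35 translation factor genes the calls were 17 lower and 5 higher in era1 and 10 lower and 8 higher in WT at 0 against 10 mM, and 14 lower and 5 higher in era1 and 13 lower and 7 higher in WT at 2 against 10 mM. EIF4G (AT3G60240), the scaffold of the cap-binding complex, was called higher at 0.79 in era1 and 0.95 in WT. Among 14 genes of TOR and energy signalling the calls were 2 lower and 6 higher in era1 and 3 lower and 4 higher in WT at 0 against 10 mM, and 5 lower and 3 higher in era1 and 6 lower and 3 higher in WT at 2 against 10 mM. In WT at 0 against 10 mM these counts and those of the translation factors lay near the shares of all genes. S6K2 (AT3G08720), one of the kinases of S6, was called higher in era1 at 0 mM (2.19, FDR = 1.39e-09; WT 0.41, FDR = 0.104), and TCP20 (AT3G27010), a factor that binds site II elements, was called higher in both (0.84 and 0.83). Among 8 tested proliferation markers the calls were 6 lower and 0 higher in era1 and 0 lower and 0 higher in WT at 0 against 10 mM, and 3 lower and 0 higher in era1 and 0 lower and 1 higher in WT at 2 against 10 mM, PCNA1 (AT1G07370) among them in era1 at 0 mM (-1.37). Among 8 clock genes the calls were 0 lower and 5 higher in era1 and 1 lower and 5 higher in WT at 0 against 10 mM, and 3 lower and 4 higher in era1 and 3 lower and 4 higher in WT at 2 against 10 mM. The morning gene LHY averaged 723, 35.9 and 432 CPM in era1 at 0, 2 and 10 mM and 740.0, 29.4 and 477 CPM in WT, with the lowest means at 2 mM, and its level follows the time of day. The part of harvest time or of proliferating tissue in the members' changes was not tested.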

How the data were processed

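Gene counts of 18 QuantSeq 3′ libraries were used as deposited. Per the labels, these are single-end stranded libraries of polyadenylated RNA. Per the submitters' processing notes, TopHat2 and the TAIR10 build were used, and the sources used here give neither versions, annotation nor the strand setting of counting. The 5 summary counters of each file were left out of library sizes. Reads with no feature were 3.75 to 5.72% of gene counts plus these counters. The members and the lists were chosen with earlier results of these data known. Low-count genes were removed with filterByExpr (minimum count 10, minimum total 15), libraries scaled by TMM, and 1 model of 6 groups fitted to 18358 genes with edgeR 4.0.16 (quasi-likelihood, R 4.3.3) with 11 contrasts, Benjamini-Hochberg adjustment over all genes and FDR 0.05. CPM are scaled by TMM; SE is the absolute log2 fold change over the root of F. DESeq2 1.42.0, other scalings, filters, sample sets, a replicate block and leaving out each library were the alternatives. Intervals are 95%. Members named with alternatives were the RACK1 genes, the 5 highest and 5 lowest called per contrast, paralogs called in opposite directions, called interactions, the 3 most and 3 least abundant and those failing the filter. The other 18 members were named after their values were seen, and their single values under the alternatives are not given here. The pipeline was tested on simulated data. Sequences came from RefSeq (TAIR10.1), read with Python 3.11.15.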

Additional observations from a re-analysis of the deposited data

Results flagged for a closer look

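By the interaction of genotype and dose in edgeR's quasi-likelihood test, the low-nitrate change differed between era1 and WT in 10 of 48 members at 0 mM (9 below and 1 above 0) and in 3 of 48 at 2 mM (1 below and 2 above 0). Over all genes, 19.3% were called below and 15.6% above 0 at 0 mM, and 8.09% below and 7.70% above 0 at 2 mM, so the members were not called more often than genes at large. At 0 against 10 mM the log2 difference, era1 minus WT, was -0.83 for RACK1B (AT1G48630), -0.68 for RPL24A (AT2G36620), -0.62 for RACK1C (AT3G18130), -0.50 for ATL5 (AT3G25520), -0.47 for RPS6 (AT4G31700), -0.43 for RPL3B (AT1G61580), -0.38 for AT2G31610, -0.37 for EMB2296 (AT2G18020), -0.27 for P40 (AT1G72370) and 0.71 for SAG24 (AT1G66580). At 2 against 10 mM it was -0.45 for RPL24A, 0.35 for SAG24 and 0.75 for RPSAb (AT3G04770). All other members missed the threshold in these tests, which does not show that they responded alike.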

How the results depend on the processing

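With only the groups compared in the fit, members called higher were 4 in WT at 0 against 10 mM and 3 in WT at 2 against 10 mM, members called lower were 1 in WT at 0 against 2 mM, and 2 were lower and 2 higher in era1 against WT at 2 mM. With no filter on low counts, 1 was lower and 5 higher in WT at 0 against 2 mM, 2 lower and 3 higher in era1 against WT at 2 mM, and 2 interactions were below 0 at 2 mM. DESeq2 size factors gave 5 higher in WT at 0 against 2 mM. DESeq2's own test gave 3 higher in era1 against WT at 10 mM and 1 interaction above 0 at 2 mM. Gene totals alone gave 6 higher in WT at 0 against 2 mM, 3 lower and 14 higher in era1 at 0 against 2 mM, 8 higher in era1 against WT at 10 mM, 1 lower and 3 higher at 2 mM, 5 lower and 18 higher at 0 mM, 5 interactions below and 6 above 0 at 0 mM and 0 below at 2 mM, and reversed era1 against WT at 0 mM for SAC52 (AT1G14320, 0.0093) and AT5G03850 (0.18). The cause was not tested.

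Leaving out 1 library, the lowest and highest counts of members called lower and then higher were as follows. At 0 against 10 mM they were 33 to 40 and 1 to 1 in era1, and 25 to 29 and 1 to 3 in WT. At 2 against 10 mM they were 30 to 40 and 1 to 1 in era1, and 23 to 26 and 1 to 1 in WT. At 0 against 2 mM they were 6 to 9 and 2 to 4 in era1, and 1 to 5 and 1 to 4 in WT. For era1 against WT they were 11 to 18 and 4 to 6 at 0 mM, 1 to 6 and 1 to 2 at 2 mM, and 3 to 5 and 2 to 9 at 10 mM. For the interactions they were 7 to 12 and 1 to 1 at 0 mM, and 0 to 3 and 2 to 2 at 2 mM. Replicate numbers did not pair the libraries: same-numbered libraries of 2 groups had a median correlation of deviations of -0.00405, 1 of 45 was over 0.1 and 5 of 18 libraries were closest to their own number. A replicate block moved 1 count by over 1.5 times, members higher in era1 against WT at 2 mM, to 3. Of single-member fold changes with 1 library left out, 2186 kept their side of the threshold, 116 lost a call and 38 gained one. At this depth AT3G51190 could not be tested.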
